A study of Mus musculus with 267 samples.

Results

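EGR2 binding after 24 hours of interleukin-4 (IL-4) was compared with basal binding in bone marrow–derived macrophages (BMDMs) of the C57 strain at all 30675 sites of the deposited C57 time-course table, read from 4 of the 24 EGR2 chromatin immunoprecipitation sequencing (ChIP-seq) libraries among the 267 samples of the series. The sites are 200 to 799 bp wide, with a median of 245 bp. Every site of the table was a member, and 2 groups within it were described more closely: the sites with the largest ratio of 24-hour to basal tags and the sites that were already highest in basal cells. Marrow came from young adult female mice and was differentiated with M-CSF; basal cells were left untreated, and treated cells received 20 ng/mL mouse recombinant IL-4 for 1, 6 or 24 hours. Each condition has 2 libraries, which the study describes as biological replicates without naming the animals or cultures, so p-values measure the spread between these libraries. A second pair of genotypes, Egr2flfl and LyzMCreEgr2flfl, was used for chromatin readouts at the same sites; both carry loxP-flanked Egr2 alleles, and Cre in the latter is driven by the LyzM promoter, which is active in myeloid cells rather than in macrophages alone. EGR2 peak lists of macrophages from the BALB, NOD, PWK and SPRET strains, basal and at 24 hours of IL-4, were also read at these sites. EGR2 ChIP-seq from Egr2-deleted cells, which would show how much antibody signal is left without the protein, was not analysed here.

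EGR2 belongs to a family of zinc finger transcription factors, with EGR1, EGR3 and EGR4, that recognize a GC-rich element and are best known as immediate early genes. Their activity is restrained by the co-repressors NAB1 and NAB2, whose genes are EGR targets in a negative feedback loop. In macrophages IL-4 acts through the IL-4 receptor and JAK kinases on STAT6, which binds a palindromic element and turns on the alternative activation program. Egr2 is itself one of the genes induced by IL-4, so EGR2 is studied as a second wave of that response.

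The sequences of 9 sites, picked as examples, are printed here. The first 5 lie at sites where the 24-hour value was far above the basal value, and the last 4 at sites that were among the highest in basal cells. Each is the reference sequence of mm10 (GRCm38.p6), plus strand, given 5′ to 3′, and covers the longest stretch of the site that holds no annotated exon. Capitals mark matches on either strand to the EGR elements GCGTGGGCG and GCGGGGGCG (called GC-rich below), to the looser EGR form GNGTGGGNG and to the STAT6 element, TTC and GAA with 4 free bases between them; the loose form contains GCGTGGGCG.
Tex9, chr9:72485497-72485773: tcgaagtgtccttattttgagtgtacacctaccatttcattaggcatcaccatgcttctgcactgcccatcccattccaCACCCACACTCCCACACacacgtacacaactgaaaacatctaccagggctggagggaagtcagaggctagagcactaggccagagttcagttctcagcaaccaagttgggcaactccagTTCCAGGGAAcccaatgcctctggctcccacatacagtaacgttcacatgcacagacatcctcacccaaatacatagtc
Il31ra, chr13:112551634-112551864: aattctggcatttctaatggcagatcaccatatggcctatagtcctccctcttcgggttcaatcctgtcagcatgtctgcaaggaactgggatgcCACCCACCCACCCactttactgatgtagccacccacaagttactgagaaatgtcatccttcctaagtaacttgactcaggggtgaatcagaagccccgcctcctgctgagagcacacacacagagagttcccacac
Mef2c, chr13:83024082-83024291: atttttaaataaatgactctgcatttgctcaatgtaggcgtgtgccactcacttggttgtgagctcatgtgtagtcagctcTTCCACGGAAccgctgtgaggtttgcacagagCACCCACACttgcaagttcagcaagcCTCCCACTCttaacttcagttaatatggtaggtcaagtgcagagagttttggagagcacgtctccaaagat
Osgin1, chr8:119428967-119429197: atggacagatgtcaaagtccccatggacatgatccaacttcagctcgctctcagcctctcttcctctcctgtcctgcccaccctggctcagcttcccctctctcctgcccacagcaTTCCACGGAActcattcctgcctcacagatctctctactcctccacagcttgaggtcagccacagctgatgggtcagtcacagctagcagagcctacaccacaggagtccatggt
Cish, chr9:107307937-107308176: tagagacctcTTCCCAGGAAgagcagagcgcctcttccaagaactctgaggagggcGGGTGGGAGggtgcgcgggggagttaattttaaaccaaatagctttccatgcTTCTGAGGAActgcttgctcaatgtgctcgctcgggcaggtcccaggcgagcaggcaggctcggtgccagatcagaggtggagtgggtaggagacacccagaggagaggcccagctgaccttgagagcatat
Arpc5, chr1:152766422-152766541: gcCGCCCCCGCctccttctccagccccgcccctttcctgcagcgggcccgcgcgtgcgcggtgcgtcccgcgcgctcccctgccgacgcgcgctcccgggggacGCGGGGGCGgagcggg
Usp28, chr9:48984991-48985290: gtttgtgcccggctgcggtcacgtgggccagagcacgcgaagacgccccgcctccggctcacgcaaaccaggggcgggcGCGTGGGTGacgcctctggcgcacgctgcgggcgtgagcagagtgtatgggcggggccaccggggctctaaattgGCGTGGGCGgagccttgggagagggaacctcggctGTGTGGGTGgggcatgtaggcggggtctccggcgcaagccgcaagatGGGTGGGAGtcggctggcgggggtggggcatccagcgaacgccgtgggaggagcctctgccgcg
Sirt1, chr10:63339051-63339220: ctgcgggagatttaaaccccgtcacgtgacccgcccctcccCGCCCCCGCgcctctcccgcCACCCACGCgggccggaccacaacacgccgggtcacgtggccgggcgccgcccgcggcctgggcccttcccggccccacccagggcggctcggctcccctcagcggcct
Dusp23, chr1:172643633-172643861: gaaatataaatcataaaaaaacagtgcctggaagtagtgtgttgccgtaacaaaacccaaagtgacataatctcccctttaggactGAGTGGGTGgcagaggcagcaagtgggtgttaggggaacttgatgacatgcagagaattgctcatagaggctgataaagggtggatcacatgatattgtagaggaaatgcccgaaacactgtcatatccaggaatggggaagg
The stretches near Tex9, Il31ra and Mef2c hold 2 loose EGR matches each, the one near Cish holds 1 and the one near Osgin1 none, and none of these 5 holds a GC-rich EGR match. STAT6 matches occur in all of them but the Il31ra stretch, with 2 near Cish. The Arpc5 stretch holds 2 GC-rich EGR matches, and the Usp28 and Sirt1 stretches 1 each, whereas the Dusp23 stretch, which is not at a promoter, has a single loose match. None of these 4 holds a STAT6 match. A match is a description of the letters and not evidence of contact. The examples hold these elements more often than the groups described below. Within 100 bp of the centre, the GC-rich EGR element lay in 24.9% of the 5% of sites highest in basal cells. The STAT6 element lay in 23.9% of the sites with a ratio of at least 2.5.

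The libraries differed in depth and in how much of their signal lay in sites. The 4 compared libraries hold 7446166 to 22280181 tags, so that 16 normalized tags (tags scaled to 10000000 per library), the lowest value used below to call a site occupied, stand for between 11.9 and 35.6 reads. The share of all tags lying in the sites was 10.8% and 14.2% in the basal libraries and 22% and 16% at 24 hours. One of the 1-hour libraries stood apart, with 5.38% of tags in sites against 13.1% in its replicate. Replicates differed by more than sampling noise in every condition, with a chi-square of 4.32 to 7.13 per degree of freedom. The cells carried macrophage chromatin: all 10 macrophage markers checked had at least 16 H3K27ac tags at an open region within 1000 bp of the start, from 190 to 848. Among markers of other cells, none of 6 T cell genes had an open region there, and those at or above 16 tags were 1 of 4 B cell genes (Ms4a1), 1 of 5 neutrophil genes (S100a8) and 1 of 3 endothelial genes (Pecam1, at 455), with no gene of 4 dendritic cell and 4 fibroblast genes.

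EGR2 binding was higher at 24 hours across most of the table. The mean of the 24-hour libraries was above the basal mean at 28746 sites (93.7%), and both 24-hour libraries lay above both basal libraries at 16754 sites (54.6%), whereas the reverse order held at 108 sites (0.352%). The median tags per site were 22.01 and 26.86 in the basal libraries and 43.99 and 32.64 at 24 hours. The basal replicates therefore lay below both 24-hour replicates, but the gap depended on which libraries were set against each other. For each pair of a basal and a 24-hour library the median log2 ratio over sites was between 0.27 and 1.00. Over group means it was 0.65 (tags + 1), with a 10th to 90th percentile of 0.11 to 1.36. Scaling the libraries by median ratios, which centres the median site near 0 by construction, lowered the median log2 ratio by 0.65. The text below therefore gives ratios under library scaling and names the counts that scaling changes. The table itself limits what could be lower at 24 hours, since 29407 of its sites (95.9%) are in the 24-hour peak list and 1268 are not.

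**Figure D1:**
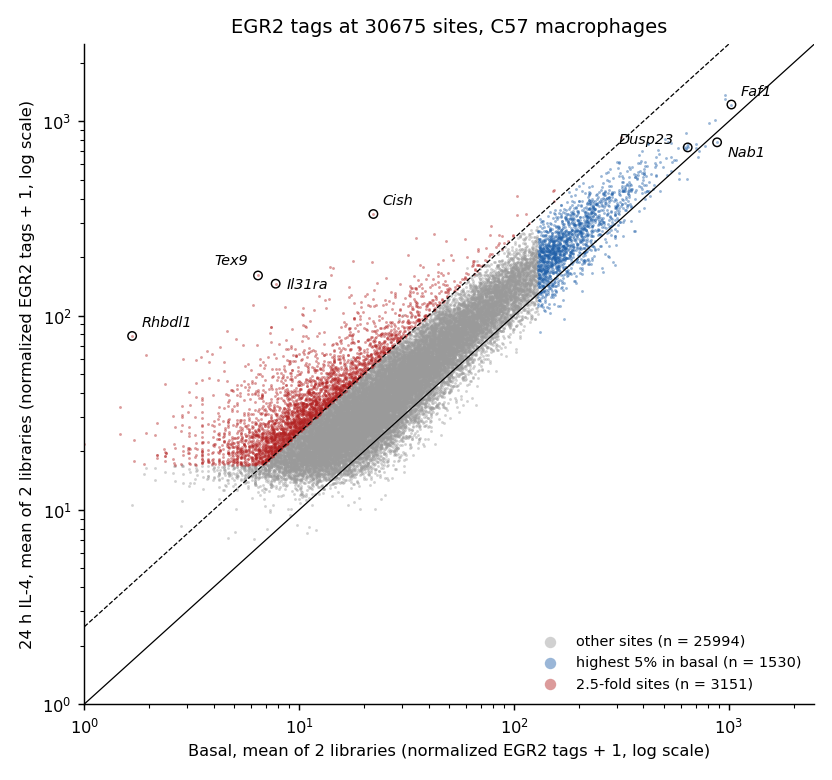
Mean EGR2 tags of 2 basal libraries (x axis) against the mean of 2 libraries at 24 hours of IL-4 (y axis), both as normalized tags + 1 on log scales, for 30675 sites. The solid line marks equal values and the dashed line a ratio of 2.5; the 3151 sites past this ratio with non-overlapping libraries (red) lie mostly at low basal values, and most of the 5% of sites highest in basal (blue, drawn where not red) lie between the lines.

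A ratio of at least 2.5 with at least 16 tags in either condition was met by 3194 sites toward higher binding (10.4% of all sites) and by 0 sites toward lower binding (0% of all sites). At 3151 of them (10.3%) both 24-hour libraries also lay above both basal libraries, and these are called 2.5-fold sites below. With median-ratio scaling the counts were 601 higher (1.96%) and 28 lower (0.0913%). At the edge of the rule, 397 sites had ratios from 2.5 to 2.6 and 466 from 2.4 to 2.5. The count rested on each library but 24-hour replicate 1: it was 4735 without basal replicate 1, 5696 without basal replicate 2 and 5439 without 24-hour replicate 2.

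How many single sites passed a test across all sites depended on the tool and on the libraries fitted. The limma test on log2(tags + 1) over the 8 time-course libraries called 0 sites (0%) at an adjusted p of 0.05, with 1038 sites under an unadjusted p of 0.05, each higher at 24 hours. The smallest adjusted p was 0.0604. On reads recovered from the tags, edgeR called 0 sites (0%), although 950 had an unadjusted p under 0.05, whereas DESeq2 called 28 (0.0913%). With only the 4 basal and 24-hour libraries in the fit, limma called 1239 sites (4.04%), all higher at 24 hours, of which 1189 were 2.5-fold sites, but with median-ratio scaling of the same 4 libraries it called 0, with 1713 under an unadjusted p of 0.05. The ratios below are therefore described with each library's value, and the test on 8 libraries is given beside them.

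The sites with the largest ratios were almost empty in basal cells. The 12 largest, 1 per nearest protein-coding gene, were taken only from sites with at least 16 tags at 24 hours and both 24-hour libraries above both basal libraries. That separation is therefore no result at these sites. They had basal values of 0 to 10.7 tags and 24-hour values of 17.3 to 187 tags, with ratios of 17.6 to 47.0 on the scale of tags + 1. None lay at a promoter. The assignment to a gene is by distance alone.

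The largest ratio was at chr17:25838472-25838680, 1281 bp from the start of Rhbdl1, which encodes a rhomboid-like protein, and inside the transcription end of Rhot2. It had 0 and 1.34 tags in the basal libraries, 2.71 and 27.97 at 1 hour, 19.2 and 94.22 at 6 hours, and 76.3 and 78.72 at 24 hours. Both 24-hour values stood above all basal and 1-hour values, and 1 of the 6-hour libraries was higher still. The limma log2 fold was 5.68 ± 1.00 (SE, n = 2 libraries a condition), with an adjusted p of 0.0604. Since the basal libraries hold a single read together, the pooled ratio of 222 has an exact 95% interval of 39.5 to 8802; such intervals cover counting error only.

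Near Tex9, the intronic site printed above had 2.81 and 8.06 basal tags and 132.4 and 187.21 tags at 24 hours. At 1 hour it stood at 17.16 and 85.83, and at 6 hours at 29.68 and 210.86. Every IL-4 library was above both basal libraries (limma log2 fold 4.75 ± 0.88 SE, n = 2, adjusted p = 0.0847). From 12 basal reads the pooled ratio was 36, with an interval of 20.4 to 70.1. The same pattern was found in the intron of Il31ra, which encodes a subunit of the interleukin-31 receptor. There the basal libraries had 2.81 and 10.74 tags, those at 1 hour 24.39 and 93.55, those at 6 hours 134.43 and 217.48, and those at 24 hours 147.66 and 142.09. The 24-hour libraries thus agreed closely, and 1 of the 6-hour libraries stood above both while the other was just below them (limma log2 fold 4.45 ± 0.76 SE, n = 2, adjusted p = 0.0604).

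Mef2c, a transcription factor gene, was the nearest gene to an intergenic site 479848 bp upstream of its start. That site had 7.49 and 2.69 basal tags and 143.18 and 81.6 tags at 24 hours, with 10.47 and 67.74 tags at 6 hours. It differed from the Il31ra site in that both 24-hour libraries stood above both 6-hour libraries. An intergenic site 8036 bp upstream of Osgin1, a growth inhibitor gene induced by oxidative stress, had 1.87 and 5.37 basal tags and 79.89 and 84.48 at 24 hours (limma log2 fold 4.28 ± 0.76 SE, n = 2, adjusted p = 0.0604). Another lay 41211 bp upstream of Csf1, which encodes the growth factor M-CSF. It had 1.87 and 0 basal tags and 56.55 and 67.2 at 24 hours.

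The other 6 sites had fewer tags or wider replicates. In an intron of Diaph3, an actin-nucleating formin, neither basal library had a read, against 24.24 and 17.28 tags at 24 hours. With a floor of 3 reads summed over the basal libraries the ratio was 21.1. The exact interval of the pooled ratio reached lower, to 16.8. Near Cd47, whose product restrains phagocytosis, 0.94 and 0 basal tags stood against 37.25 and 28.8, and the 2 basal reads leave a pooled ratio of 49.8 with an interval from 13.5 to 416. The sites near Sft2d2 (3.75 and 0 against 34.11 and 83.52), Gm9913 in an intron of the fibrillin gene Fbn1 (1.4 and 1.34 against 26.93 and 59.52), Arl15 (3.28 and 1.34 against 39.95 and 75.84) and the septin gene Sept9 (1.4 and 4.03 against 30.07 and 98.88) had 24-hour replicates that differed widely. At 9 of the 12 sites the 6-hour mean was at least 50% of the 24-hour mean, with a median ratio of 0.77.

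**Figure D2:**
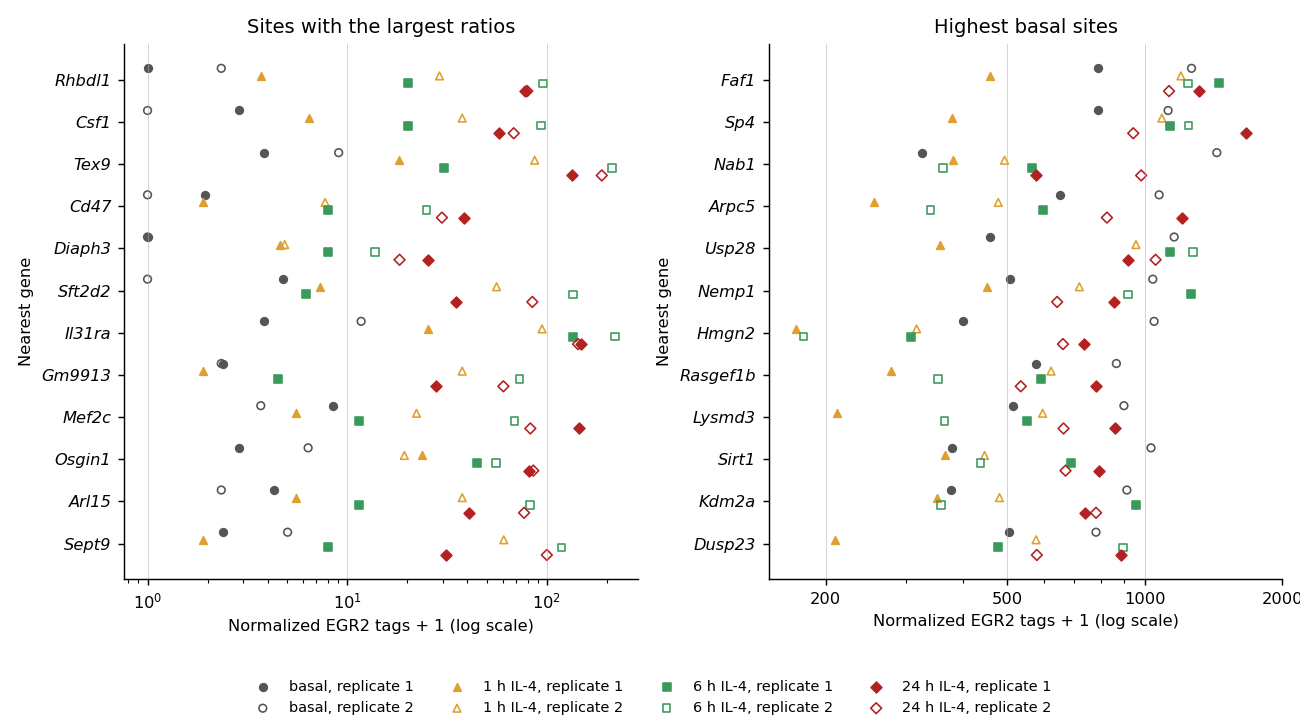
EGR2 tags + 1 (x axis, log scale) in each of 8 libraries for the 12 sites with the largest 24-hour to basal ratios (left) and the 12 highest basal sites (right), named by nearest gene; filled and open symbols are replicates 1 and 2. On the left both 24-hour values lie right of both basal values at every site, which the choice of these sites required. On the right the conditions overlap.

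The highest basal sites showed no such gap. The 12 highest, 1 per gene, had 324 to 1436 tags in basal cells and 534 to 1662 at 24 hours, with ratios of 0.885 to 1.36, and at none did both 24-hour libraries lie above both basal libraries. Of these, 10 lay at promoters. They are 220 to 391 bp wide, against a median of 245 bp over all sites, and all 12 were also among the highest 5% by basal tags per bp. The part of width in their height was not tested. Basal replicate 2 was above basal replicate 1 at all 12.

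The highest was the promoter of Faf1, a Fas-associated factor gene, at chr4:109676498-109676735. It had 788.16 and 1263.74 basal tags against 1309.24 and 1128.04 at 24 hours, and the 6-hour libraries, at 1454.25 and 1239.67, were no lower. The promoter of Sp4, which encodes a zinc finger factor of the SP family, had 787.69 and 1122.73 against 1662.46 and 941.79. In both cases the basal values lay within or beside the 24-hour range. Promoters of both co-repressor genes of the EGR family were among the 12. At Nab1 the basal libraries had 324.07 and 1435.64 tags and the 24-hour libraries 576.75 and 980.2, so that the replicates differed by more than the conditions. The site named for Nemp1, a nuclear envelope protein gene, is annotated as the promoter of Nab2 and had 505.77 and 1039.46 against 854.12 and 641.3.

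Arpc5, a subunit of the actin-branching Arp2/3 complex, had 650.01 and 1073.04 basal tags at its promoter against 1202.86 and 824.67. Usp28, a deubiquitinase gene, had 458 and 1157.64 against 915.16 and 1054.12, and the deacetylase gene Sirt1 had 377.92 and 1030.06 against 792.63 and 669.14. At Usp28 and Sirt1 both 24-hour values lay between the basal replicates, and at Arpc5 1 of them did. The remaining promoters were those of Rasgef1b, Lysmd3 and the histone demethylase gene Kdm2a, and the 2 sites away from promoters were an intronic site 98 bp from the start of Hmgn2, a nucleosome-binding protein gene, and an intergenic site 10785 bp from the start of the phosphatase gene Dusp23. The latter had 503.43 and 780.27 basal tags against 886.89 and 578.9. Over these 12 the smallest limma adjusted p was 0.838.

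The same contrast held for the groups they belong to, which the rule for each group partly fixes. The 1534 sites with the highest 5% of basal means (at least 127.955 tags; the next site had 127.92) had library medians of 147.05 and 209.5 tags in basal cells and 286.35 and 199.21 at 24 hours. Their median log2 ratio was 0.41, 4 of them (0.261%) passed the 2.5-fold rule, and both 24-hour libraries lay above both basal libraries at 447 (29.1%), below the 54.6% of all sites. They held 25.5% of all basal tags in sites and 22.3% of those at 24 hours. At the 2.5-fold sites the library medians were 9.83 and 9.40 tags in basal cells, 5.42 and 17.36 at 1 hour, 12.22 and 30.05 at 6 hours and 34.56 and 29.76 at 24 hours. Both 24-hour medians thus stood near the upper 6-hour median, while the replicates of the earlier times disagreed. Of the 2.5-fold sites 77.8% had a basal mean under 16 tags and 698 had one at or above it.

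Because each group was picked from the values themselves, membership was also taken from one numbered pair of libraries and read in the other. The 7786 sites past the rule in the replicate 1 libraries had a median log2 ratio of 0.54 in the replicate 2 libraries, where the median of all sites was 0.27, and 17.6% of them passed the rule there against 10.3% of all sites. The 3152 sites past the rule in the replicate 2 libraries had a median of 1.22 in the replicate 1 libraries against 1.00 for all sites, and 43.5% passed the rule against 25.4%. In both directions the chosen sites stayed above the median of all sites, by less than in the libraries that chose them. The highest basal sites of replicate 1 had a median of -0.09 in the replicate 2 libraries, below the 0.27 of all sites, whereas those of replicate 2 had 0.97 in the replicate 1 libraries, close to the 1.00 of all sites. The basal libraries shared 1109 (72.3%) of their highest 5% of sites.

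Ratios of group means were smaller at promoters than at intronic or intergenic sites, but not for every pair of libraries. The 7818 sites annotated as promoters had a median log2 ratio of 0.57 and 3.24% of them passed the 2.5-fold rule, whereas the ratio was 0.68 with 12.6% past the rule at 11988 intronic sites and 0.69 with 13.8% at 9127 intergenic sites. In all, 10.4% of sites passed it. The order of the medians rested on basal replicate 2: against it the promoter medians were 0.59 and 0.076 and the intergenic medians 0.86 and 0.39, whereas against basal replicate 1 they were 1.06 and 0.53 at promoters and 0.96 and 0.54 at intergenic sites. Only 7.97% of the 2.5-fold sites lay at promoters, against 25.5% of all sites and 55.3% of the highest basal sites. The median distance to the nearest protein-coding start was 17474 bp for the 2.5-fold sites, 7332 bp for all sites and 228 bp for the highest basal sites. All sites were also sorted by their mean at 1 and 6 hours, which neither group used, into 5 bins of 6134 to 6136 sites. The median log2 ratio was 0.82 in the lowest bin and 0.55 in the highest, and the share past the rule went from 17.3% to 5.00%.

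Whether a site counts as bound in basal cells depended on which deposited file defined it. The basal peak list holds 8437 peaks and overlaps 8375 sites (27.3%), whereas the column of the table that names the conditions of each site lists basal for 13601 sites, and 7759 sites are in both. For 1 hour the list overlaps 13266 sites and the column names 7422, while for 6 and 24 hours list and column match at 13072 and 29407 sites. Of the 24-hour sites, 21312 (72.5%) were outside the basal list and 16296 (55.4%) were not named basal in the column. The share past the 2.5-fold rule, 10.4% in all, was 14% and 17.5% of these and 1.69% and 2.16% of the sites bound in both conditions. The cause of the mismatch was not tested.

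Genes of the IL-4 response differed in whether their strongest site, the one with the highest mean over the 8 libraries, was among the sites with large ratios. For comparison, 727 of 11497 genes with a site (6.32%) had their highest site past the 2.5-fold rule. Among 15 genes of IL-4 signalling and feedback, 14 had a site, and Cish was the only 1 whose highest site passed the rule. Cish encodes a STAT-induced inhibitor of cytokine signalling, and its highest site, printed above, lies 11346 bp from its start. The basal libraries had 15.45 and 26.86 tags there, those at 1 hour 93.93 and 337.54, those at 6 hours 202.51 and 500.15, and those at 24 hours 302.51 and 361.93. Every IL-4 library exceeded both basal libraries, and all 6 sites assigned to Cish passed the rule (at the highest, limma adjusted p = 0.0604). The promoter of the kinase gene Jak2 went from 118.01 and 249.79 to 382.85 and 443.54 (log2 ratio 1.16), and that of Socs1, another feedback inhibitor, from 125.04 and 206.82 to 361.31 and 246.73 (0.87). Both stayed under a ratio of 2.5 with non-overlapping libraries, an order also found at 54.6% of all sites. At the promoter of Tyk2, also a JAK kinase, the basal values of 115.2 and 175.93 stood against 120.29 and 83.52 (-0.51). Over the list 15 of 91 sites (16.5%) passed the rule, against 10.4% of all sites.

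At the highest site of each gene of the EGR family the 24-hour values lay above the basal values, and at the highest sites of the co-repressor genes the conditions overlapped. At the highest site of Egr2, 2426 bp upstream, the basal libraries had 62.75 and 151.76 tags and the 24-hour libraries 307.9 and 217.93 (log2 ratio 1.29). Egr1 had 134.4 and 264.57 at its promoter against 575.85 and 353.29 (1.22), and Egr4 had 12.64 and 16.12 against 41.29 and 40.32 (1.44), the only one of the 6 highest sites past the 2.5-fold rule. Egr3 had 177.02 and 226.96 against 326.75 and 273.61 (0.57). In each of these the libraries did not overlap, an order also found at 54.6% of all sites. At Nab2 the highest site, in an intron, had 106.77 and 354.54 basal tags against 151.26 and 176.65 (-0.49), with overlapping libraries, and the Nab1 promoter was described above. Median-ratio scaling lowers the median log2 ratio over sites by 0.65. Under it the log2 ratios at Egr1, Egr2 and Egr4 stayed above 0 and that at Egr3 was -0.077. Over all sites of the 6 genes, 6 of 30 (20%) passed the rule, against 10.4% of all sites in the table; 3 of these were among the 6 sites assigned to Nab1, where the largest log2 ratio was 2.29. None had a limma adjusted p under 0.838.

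Effectors of alternative activation had the largest share of sites past the rule of any list examined, 32 of 132 sites (24.2%), and 6 of the 29 genes with a site had their highest site past it. Tgm2, the macrophage transglutaminase gene, had 20.61 and 45.66 basal tags 32370 bp upstream against 199.28 and 120 at 24 hours (log2 ratio 2.23). Chil3, which encodes the secreted chitinase-like protein Ym1, had 6.56 and 6.71 against 20.65 and 44.16 (2.13), and its neighbour Chil4 36.53 and 26.86 against 90.21 and 115.2 (1.67). The homeobox gene Msx3 had 10.3 and 6.71 against 43.54 and 35.52 (2.09), Tmem26 7.02 and 22.83 against 44.88 and 73.92 (1.92), and the cadherin gene Cdh1 54.32 and 48.35 against 191.2 and 108.48 (1.53). At all 6 genes both 24-hour libraries lay above both basal libraries, as at 3151 of the 3194 sites past the rule and 54.6% of all sites. In contrast, Arg1, the arginase that marks alternative activation, had its highest site 15979 bp from its start, at the annotated transcription end of Mir6905. That site had 73.06 and 108.78 basal tags against 138.24 and 94.08 (0.35). Mrc1, the mannose receptor gene, had 30.91 and 17.46 against 38.15 and 21.12 (0.28). At neither of these highest sites did the conditions separate. Of all sites assigned to these genes, 2 of 6 passed the rule for Arg1 and 0 of 4 for Mrc1.

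Shares in the other lists ran from 0% to 16.7%, beside 10.4% of all sites. The rule was passed by 54 of 324 sites (16.7%) near transcription factor genes, 11 of 71 (15.5%) near lipid-handling genes, 8 of 55 (14.5%) near surface and phagocytosis genes, 12 of 103 (11.7%) near inflammatory genes and 0 of 25 near housekeeping genes. For Bhlhe40, a transcription factor gene, a site 89219 bp upstream had 272.55 and 351.86 basal tags against 933.57 and 733.47 (log2 ratio 1.41). It combined a high basal value with a ratio past the rule. The promoter of the integrin gene Itgax had 44.49 and 37.6 against 121.18 and 184.33 (1.87), and the chemokine gene Ccl4 had 12.18 and 2.69 against 43.09 and 40.32 (2.34) 4960 bp upstream. Pparg, the lipid-sensing nuclear receptor gene, had 74.93 and 67.15 against 134.65 and 164.17 (1.06), under the rule but not overlapping, as at 54.6% of all sites.

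H3K27ac, a histone mark of active promoters and enhancers, was read from other libraries of the same strain. Over 77955 open regions of 1000 bp, the limma test on 8 time-course libraries called 878 regions higher (1.13%) and 255 lower (0.327%) at 24 hours. Of 2304 regions holding a 2.5-fold site, 243 (10.5%) were called higher and 2 lower. Library medians in these regions were 15.6 and 17.11 tags in basal cells and 34.8 and 40.69 at 24 hours, and the median log2 fold was 0.73 against -0.22 over all regions. Of 23682 regions with an EGR2 site but no 2.5-fold site, 206 were higher and 59 lower, with a median of -0.45. Of 1505 regions with a site of the highest 5% in basal, 7 were higher and 0 lower, with medians of 181.14 and 150.45 tags in basal cells and 129.02 and 109.6 at 24 hours. Of these 1505, 61 had lower values with an unadjusted limma p under 0.05; the edgeR count of lower regions was 0 and the DESeq2 count 5. The share of H3K27ac tags lying in the regions was 69.7% and 63.8% in basal cells and 46.4% and 41.2% at 24 hours, and its part in these medians was not tested; with median-ratio scaling the medians were 0.05 over all regions, 0.98 with a 2.5-fold site and -0.23 with a highest basal site.

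The count of 243 was 396 and 391 without 1-hour replicates 1 and 2, and 119, 140 and 141 without 24-hour replicate 2 and 6-hour replicates 1 and 2. With only the basal and 24-hour libraries, limma called 0 regions with an EGR2 site in either direction (2356 higher and 4576 lower at an unadjusted p under 0.05), against 449 higher and 61 lower in the fit on 8. On reads, edgeR called 703 higher and 49 lower and DESeq2 1314 and 310. For RNA polymerase II (Pol II) limma called 392 of all regions higher (0.503%) and 136 lower (0.174%). Of the regions with a highest basal site it called 5 higher and 1 lower. Their median log2 fold was 0.04 against -0.02 over all regions, so this group was not below all regions as for H3K27ac. Of the regions with a 2.5-fold site limma called 111 higher (4.82%) and 0 lower, with 42 lower at an unadjusted p under 0.05. There edgeR and DESeq2 called 1 and 2 lower. Pol II library medians in the regions with a 2.5-fold site were 11.23, 9.63, 9.11 and 8.1 tags in 4 basal libraries and 16.67, 14.56 and 12.83 in 3 libraries at 24 hours, with no overlap. In contrast, H3K4me2, a mark of poised and active enhancers, had medians of 38.39 and 38 in basal cells and 37.94 and 24.15 at 24 hours at 2.5-fold sites, and of 45.74 and 45.04 against 34.84 and 22.69 over all regions. Not every site could be read in this way, since 73.2% of the 2.5-fold sites lay in an open region, against 85.7% of all sites and 98.4% of the highest basal sites.

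**Figure D3:**
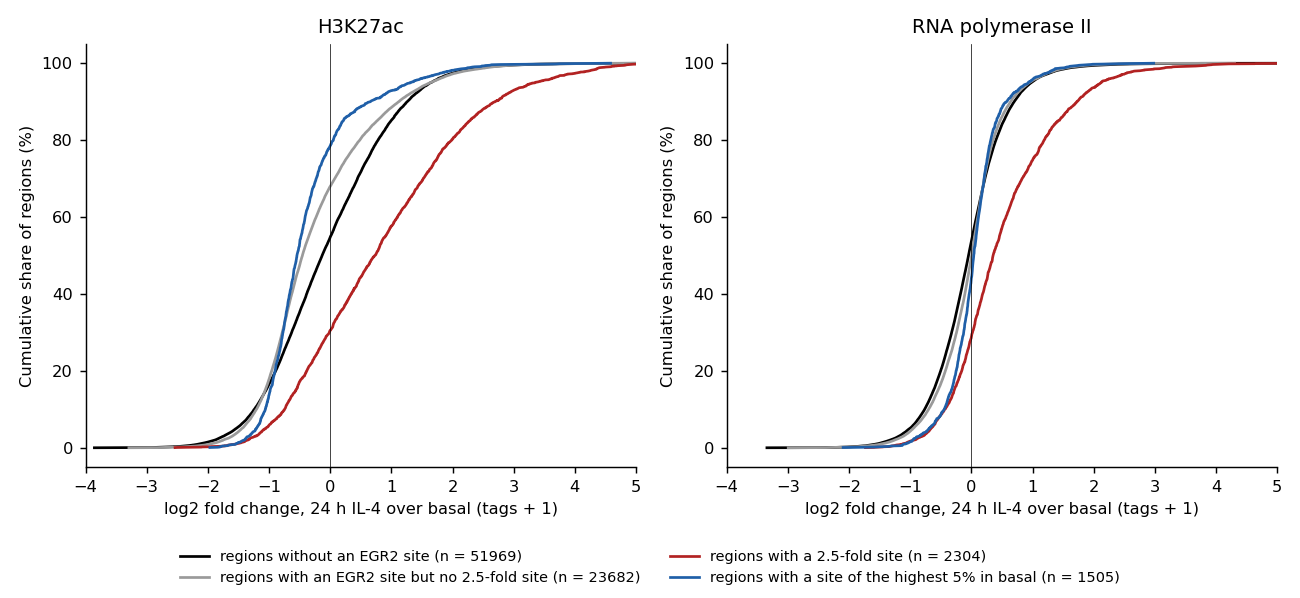
Cumulative share of open regions (y axis, percent) by the limma log2 fold of H3K27ac (left) and Pol II (right) at 24 hours over basal (x axis, tags + 1, drawn from -4 to 5), for regions grouped by the EGR2 site they hold. The curve of the 2304 regions with a 2.5-fold site lies right of the other 3 in both panels; its median is 0.73 for H3K27ac and 0.35 for Pol II.

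Among the 12 sites with the largest ratios, 10 lay in an open region and H3K27ac was called higher at 7 of them and lower at none. The share called higher was 1.13% of all open regions and 10.5% of those with a 2.5-fold site. The Tex9 region had 1.36 and 0 H3K27ac tags in basal cells and 51.78 and 100.41 at 24 hours (limma log2 fold 5.57, adjusted p = 0.000825). At Il31ra 5.43 and 3.57 tags stood against 198.63 and 161.45 (5.05, limma adjusted p = 0.00048), and Pol II was higher there as well (4.65, limma adjusted p = 0.000384). The Mef2c region had 0.68 and 0.71 against 44.99 and 74.16 (5.12, limma adjusted p = 0.000541), and the Rhbdl1 region 1.36 and 0.71 against 41.59 and 40.69 (4.39, limma adjusted p = 0.00108). These regions went from near 0 to well above the median open region. At Sft2d2, Sept9 and Diaph3 the mark was not called. Sft2d2 had 144.51 and 285.93 basal tags against 214.75 and 295.99, and Diaph3 1.36 and 0 against 9.34 and 10.5 (2.83, limma adjusted p = 0.0544). At Cish 4.75 and 1.43 tags stood against 89.13 and 89.26 (4.59, limma adjusted p = 0.000825). All 12 of the highest basal sites lay in open regions and 0 were called in either direction by limma, edgeR or DESeq2, with 0 under an unadjusted p of 0.05 in each and a limma adjusted p of 0.352 or more; at Arpc5, for example, 447.76 and 469.9 tags stood against 303.03 and 185.73.

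At EGR2 sites the study had selected as induced by IL-4 at 24 hours, H3K27ac was compared between LyzMCreEgr2flfl and Egr2flfl macrophages (2 libraries for each genotype and condition). These 4677 sites were chosen by the study from EGR2 peaks of the same libraries, so they are no independent sample of sites. At 24 hours limma called 1087 sites lower (23.2%) and 66 higher (1.41%) in LyzMCreEgr2flfl, but with median-ratio scaling 498 lower (10.6%) and 538 higher (11.5%), so the balance of directions depends on the scaling. The median log2 difference was -0.50 with library scaling and -0.03 with median-ratio scaling. Without Egr2flfl replicate 1 or 2 at 24 hours the count of lower sites was 449 or 432, and without LyzMCreEgr2flfl replicate 1 at 24 hours it was 641. The table holds 2452 of the 2.5-fold sites, of which 627 were lower and 32 higher, or 314 and 267 with median-ratio scaling. Their library medians were 12.78 and 10.86 tags in basal Egr2flfl cells, 28.645 and 28.9 at 24 hours, 9.03 and 8.97 in basal LyzMCreEgr2flfl cells and 13.51 and 14.51 at 24 hours. The 24-hour medians of the genotypes did not overlap, and the basal ones did not either. For the interaction of genotype and IL-4, limma called 0 sites (0%), with 615 under an unadjusted p of 0.05, and no other tool was run for it.

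Single sites showed larger differences than the median. Of the 12 sites with the largest ratios 11 are in this table, and limma called 7 lower and 1 higher in LyzMCreEgr2flfl at 24 hours. Over all 4677 sites 23.2% were lower and 1.41% higher. The single-site calls are given under library scaling only, and median-ratio scaling changed the counts over all sites to 498 lower and 538 higher. At Tex9 the Egr2flfl libraries had 110.56 and 86.06 H3K27ac tags and the LyzMCreEgr2flfl libraries 11.43 and 13.93 (limma log2 difference -2.85 ± 0.50 SE, n = 2, adjusted p = 0.000986). At Mef2c 55.28 and 42.39 stood against 3.12 and 4.64 (-3.36, limma adjusted p = 0.000502), at Il31ra 65.33 and 114.96 against 12.47 and 22.64 (-2.30, limma adjusted p = 0.00529), and at Osgin1 58.29 and 76.43 against 12.47 and 20.89 (-1.98, limma adjusted p = 0.00167). In all 4 both LyzMCreEgr2flfl libraries lay well under both Egr2flfl libraries. At Cish 204.03 and 166.35 stood against 101.82 and 75.45 (-1.06, limma adjusted p = 0.018). The opposite order was found at Sft2d2, at 320.62 and 341.68 against 490.41 and 507.26 (0.59, limma adjusted p = 0.0302), and at Arl15, at 205.03 and 231.86 against 257.67 and 323.28, which was not called (0.40, limma adjusted p = 0.228). None of the 12 highest basal sites is in the table.

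**Figure D4:**
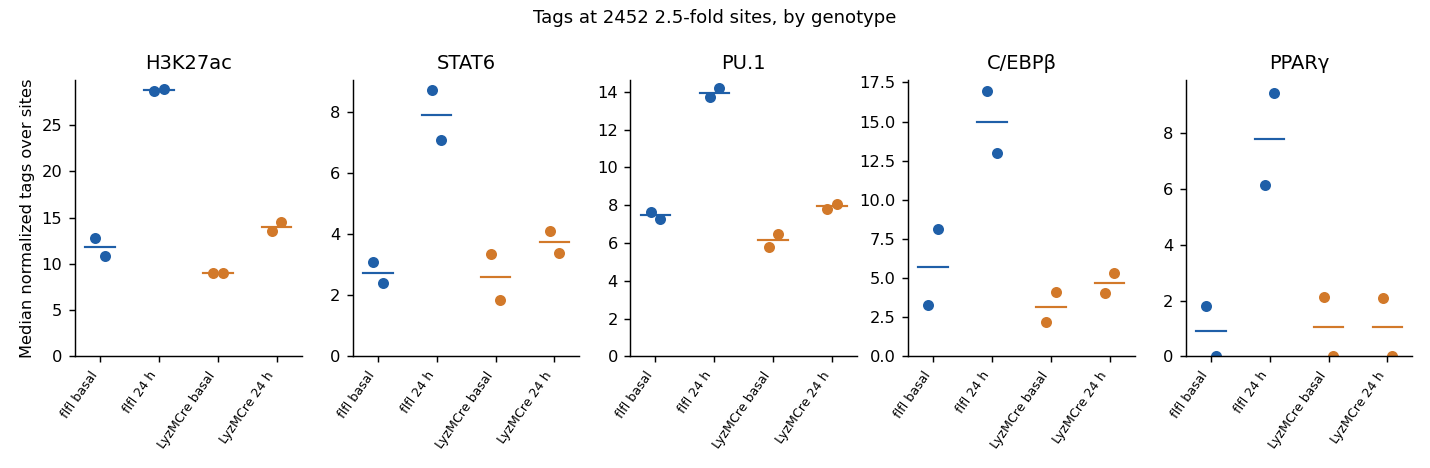
Median normalized tags (y axis) over the 2452 2.5-fold sites present in the genotype table, for H3K27ac and 4 transcription factors; points are single libraries, lines their means, blue Egr2flfl (flfl) and orange LyzMCreEgr2flfl (LyzMCre). In every panel both 24-hour Egr2flfl libraries lie above both 24-hour LyzMCreEgr2flfl libraries. The same order held at the 2225 selected sites that were not 2.5-fold sites, which are not drawn.

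Other factors at the same 2452 sites had higher 24-hour medians in Egr2flfl than in LyzMCreEgr2flfl cells. STAT6 medians were 8.71 and 7.08 tags against 4.12 and 3.38, and in basal cells 3.09 and 2.39 against 3.34 and 1.84. For PU.1, the lineage factor of macrophages, they were 13.71 and 14.22 against 7.8 and 8.08, and in basal cells 7.65 and 7.3 against 5.78 and 6.5. C/EBPβ, a partner lineage factor, had 16.93 and 13 against 4.07 and 5.36 (basal 3.26 and 8.16 against 2.18 and 4.12). PPARγ had 6.14 and 9.45 against 2.09 and 0 (basal 1.82 and 0 against 2.13 and 0). The basal medians of STAT6, C/EBPβ and PPARγ overlapped between genotypes and the 24-hour medians did not. The 24-hour order was the same at the 2225 sites of the study's selection that were not 2.5-fold sites, so it was not particular to the latter. There C/EBPβ had 19.96 and 15.43 against 5.43 and 7.51, and PU.1 18.85 and 19.16 against 13.37 and 13.63. STAT6 had 8.71 and 7.08 against 5.15 and 3.38, and PPARγ 6.14 and 9.45 against 2.78 and 0. All these medians describe 2 libraries each over sites the study selected, at few tags per site and under library scaling only.

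Peak lists of the same 4 factors in C57 cells overlapped the sites to different degrees. A STAT6 peak at 24 hours but not in basal cells lay on 35% of the 2.5-fold sites, 20.1% of all sites and 22.1% of the highest basal sites. PU.1 peaks gained in this way lay on 20.7% of the 2.5-fold sites, 10.5% of all sites and 7.04% of the highest basal sites. For C/EBPβ the shares were 23.4%, 19.1% and 18.3%, and for PPARγ 33.9%, 33.5% and 45.6%. These gains go with low basal shares at sites chosen for low basal EGR2 values: counted at 24 hours alone, a STAT6 peak lay on 56.5% of the 2.5-fold sites and 56.1% of all sites, and a PU.1 peak on 54.9% and 64.8%. In basal cells a STAT6 peak covered 22.9% of the 2.5-fold sites and 62.6% of the highest basal sites (41.4% of all sites), and a PU.1 peak 35.6% and 74.5% (58.2%). No peak of the 4 factors at 24 hours lay on 25.1% of the 2.5-fold sites, 20.0% of all sites and 7.76% of the highest basal sites. Each list stands for a condition as a whole, so there is no replicate behind these shares, and the lists grew from basal to 24 hours (STAT6 from 30589 to 39537 peaks, C/EBPβ from 18043 to 37499). Of the 12 sites with the largest ratios 8 had a STAT6 peak at 24 hours and 1 in basal cells, and of the 12 highest basal sites 11 and 10 had one.

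The base composition and motifs of the groups differed within 100 bp of the site centre, which the rules did not use. The median GC content was 48.8% at the 2.5-fold sites, 53.2% at all 30662 sites with a full window and 66.7% at the highest basal sites. The GC-rich EGR element lay in 1.33% of the 2.5-fold sites (exact 95% interval 0.962% to 1.80%), 5.50% of all sites and 24.9% of the highest basal sites (22.7% to 27.1%), against 0.200% of 51957 open regions without an EGR2 site. The loose EGR form was found in 27.6%, 26.9% and 45.7% and in 4.32% of those open regions. The 2.5-fold sites thus held an EGR element of some kind in about the same share as all sites, and the GC-rich form in a smaller one. The STAT6 element showed the opposite order, with 23.9% of the 2.5-fold sites (22.4% to 25.4%), 6.66% of all sites, 3.53% of the highest basal sites and 6.06% of the open regions. The AP-1 element TGANTCA was in 21.6%, 15.5% and 8.36%, and in 17% of the open regions. The KLF/SP element GGGCGGG was in 9.68%, 21.7% and 48.4%, and in 6.05%. The PU.1 elements GAGGAAGT and AGAGGAAG (10.6%, 14.2% and 9.21%, with 14.2% of open regions) and the C/EBP element TTGCNNAA (14.9%, 13.4% and 8.43%, with 11.8%) differed less.

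**Figure D5:**
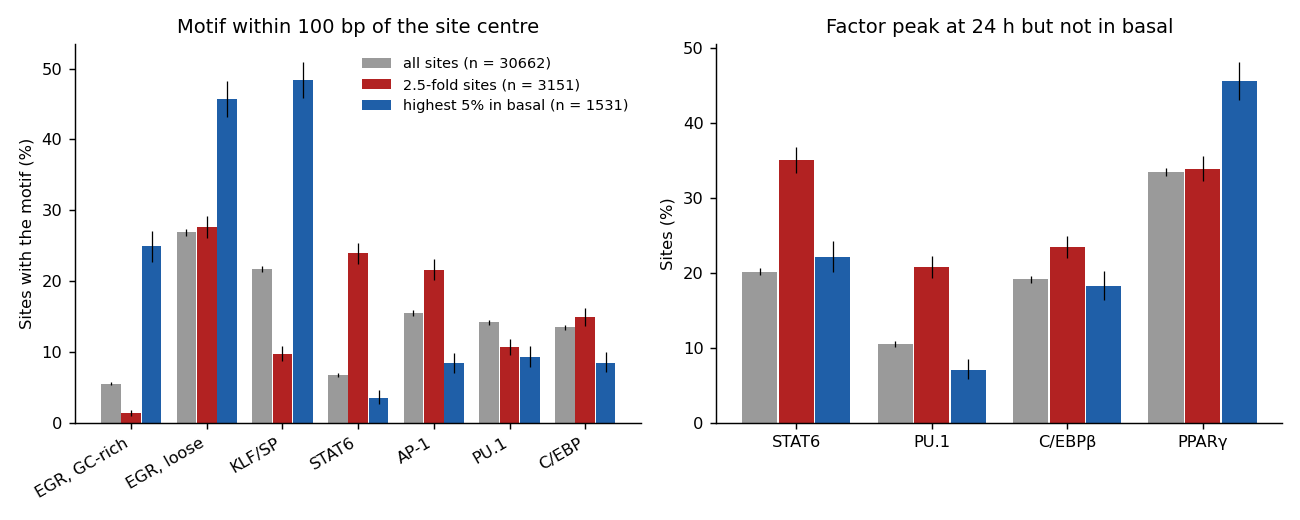
Left, share of sites (y axis, percent) with a motif within 100 bp of the centre on either strand; right, share with a factor's peak at 24 hours but not in basal cells. Gray bars are all sites, red the 2.5-fold sites and blue the highest 5% in basal; error bars are exact 95% binomial intervals, which cover counting error only. STAT6 elements stand at 23.9% of the 2.5-fold sites against 6.66% of all sites, and GC-rich EGR elements at 1.33% against 5.50%.

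The differences in STAT6 and GC-rich EGR elements remained away from promoters, where base composition differs less. The part of base composition in them was not tested. Among sites not at promoters the STAT6 element was in 24.9% of the 2.5-fold sites and 7.82% of all sites, and the GC-rich EGR element in 0.828% and 3.06%. The AP-1 gap was smaller there, at 22.8% and 19.4%, and the C/EBP order reversed, at 15.6% and 16.2%. The KLF/SP element (6.97% and 11.1%) and the PU.1 elements (10.97% and 17.1%) kept their order. The highest basal sites not at promoters held the GC-rich element in 16.2% and any EGR element in 61.4%. Of the 12 sites with the largest ratios 11 held a STAT6 element and 5 a loose EGR element, whereas none held a GC-rich EGR or KLF/SP element. The exception for STAT6 was Il31ra, although a STAT6 peak covered it at 24 hours. Of the 12 highest basal sites none held a STAT6 element, 8 held a GC-rich EGR element, 10 any EGR element and 10 a KLF/SP element.

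EGR2 peak lists of BALB, NOD, PWK and SPRET macrophages gave the same order of sites. A basal EGR2 peak in all 4 other strains lay on 81.2% of the highest basal sites, 13% of all sites and 1.59% of the 2.5-fold sites, and a 24-hour peak in all 4 on 91.9%, 29.3% and 14.7%. A 24-hour peak in none of them was found for 26.8% of the 2.5-fold sites, 18.1% of all sites and 0.978% of the highest basal sites. A peak at 24 hours but not in basal cells lay on 24.5% of the 2.5-fold sites in BALB (all sites 12.1%), 6.92% in NOD (3.51%), 20.2% in PWK (24.6%) and 40.8% in SPRET (33.6%). The 2.5-fold sites of C57 were thus above all sites in 3 strains and below in PWK. The NOD lists hold fewer peaks at 24 hours than in basal cells, 16604 against 25341, and lists of different size are compared here. Among the 12 sites with the largest ratios 2 had a 24-hour peak in every other strain and 4 in none, whereas all 12 highest basal sites had basal and 24-hour peaks in every strain. In bulk chromatin, binding in more cells and more binding per cell cannot be told apart in any of these values.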

How the data were processed

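The authors mapped reads to the mouse genome mm10 and counted tags in HOMER; the submitters' processing notes name Bowtie2 and HOMER. The deposited table holds, per the file headers, EGR2 tags scaled to 10000000 per library (unit signal, one column a library), at peaks merged over conditions. Whole reads were recovered within 0.1 read for 100% of 2106638 such values, those read here from the tag tables used. Counts on the deposited values could therefore be rebuilt for edgeR and DESeq2. The deposited peak lists carry a score (an IDR score in some lists, a column named only score in others, PPARγ included), which ranked peaks in the equal-size comparison. Value columns that matched no sample (4 over the 9 tag tables of the authors) were not used.

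Tests were limma 3.58.1 with trend on log2(tags + 1), two-sided, Benjamini-Hochberg adjusted over all sites or regions at 0.05, on all libraries of a table's time course (genotype, IL-4 and their interaction for the genotype table). Alternatives were edgeR 4.0.16 and DESeq2 1.42.0, median-ratio scaling, a replicate block, other pseudocounts, filters and folds, and leaving out each library. The 2.5-fold and 16-tag thresholds were borrowed from the study's rule for H3K27ac at open regions, where it also required Pol II; their use on EGR2 tags was chosen here. Scripts were tested on simulated data. The table gives no nearest gene, so sites were assigned to the nearest GENCODE vM21 protein-coding start; features are the authors' annotation. Named were the 12 sites with the largest ratio among those with at least 16 tags at 24 hours and non-overlapping libraries, the 12 with the highest basal mean (1 per gene), the highest 5% in basal, the 4 with the largest fall in value, and, for listed genes, the site with the highest mean. The members and lists were chosen with earlier results of these data known. Region tables were read where a 1000 bp open region held the site centre. Peak lists of other strains were moved to mm10 by the authors.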

Additional observations from a re-analysis of the deposited data

How the results depend on the processing

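The test across sites, which called 0 sites, called 12 with sites under a mean of 16 tags removed, 24 with a pseudocount of 5, 28 with DESeq2, 44 with DESeq2 on the basal and 24-hour libraries only, 1239 with limma on those 4 libraries, and 0 to 74 when 1 library was left out; it called 0 lower throughout those omissions. The 3194 sites past the 2.5-fold rule became 1746 with a pseudocount of 5, 2017 with the mean filter, 601 with median-ratio scaling, 6880 and 729 at folds of 2 and 4, 1708 at a minimum of 32 tags, and 2606 to 5696 with a library left out, and the 0 lower sites became 28 with median-ratio scaling, 3 at a fold of 2 and 0 to 59 with a library left out. The median log2 fold of 0.66 was 0.45 to 0.88 with a library left out, 0.020 and 0.0074 with median-ratio scaling of 8 and 4 libraries, -0.0027 and -0.0011 with edgeR and -0.0029 and -0.016 with DESeq2, whose scaling removes a shift shared by all sites. H3K27ac regions with an EGR2 site, 449 higher and 61 lower, numbered 1314 and 310 with DESeq2, and 0 and 0 with limma on 4 libraries. The higher count was 703 with edgeR, 271 with the mean filter, 712 with median-ratio scaling and 168 to 873 with a library left out. The lower count was 3 to 879 with a library left out. For the genotype, the 1087 lower sites became 645 with the mean filter, 498 with median-ratio scaling and 432 to 1138 with a library left out, and the 66 higher sites 538 with median-ratio scaling and 12 to 66. Requiring an overlap of 50% of the site put the shares of sites with a PU.1 peak at 49.5% in basal cells and 55.9% at 24 hours, C/EBPβ at 20.6% and 36.7%, STAT6 at 37.6% and 53.1% and PPARγ at 6.32% and 32.3%; with lists of equal size the 24-hour shares were 63.7%, 26.5%, 47.9% and 11.9%.

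Libraries of one number share no stated animal or day, and with 2 pairs the correlation of the deviations of same-numbered basal and 24-hour libraries was 0.36. Adding the replicate block to the fit, the test called 49 EGR2 sites, 1581 H3K27ac regions higher and 746 lower, and 169 genotype sites higher. At the 12 highest basal sites the sign changed between settings: 119 of 216 log2 folds over 18 settings were above 0 (-0.93 to 1.21), and none passed the threshold. For differences outside the alternatives' own construction the cause was not tested. Depth limits the low sites, where 16 tags are 11.9 reads in the shallowest of the 4 libraries.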

Other observations

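Sites below the highest one of a listed gene can have larger ratios, and 5 are given here that were chosen after their values were seen. A site 634 bp upstream of Socs1, the feedback inhibitor, had 24.82 and 42.98 basal tags, 112 and 368.4 at 1 hour, 202.51 and 479.77 at 6 hours and 202.87 and 297.61 at 24 hours, a log2 ratio of 2.85. An intronic site of Tmem26 had 2.34 and 2.69 basal tags against 22.44 and 50.88 at 24 hours (3.42). A site in the cholesterol exporter gene Abcg1 had 7.49 and 6.71 against 61.94 and 79.68 (3.15). A site 84013 bp upstream of the AP-1 gene Jun had 3.75 and 1.34 against 43.99 and 47.04 (3.71). In each the libraries did not overlap, as at 3151 of the 3194 sites past the 2.5-fold rule. The promoter of Arg1 had 1.87 and 4.03 basal tags, 25.29 and 27 at 1 hour, 40.15 and 52.97 at 6 hours and 12.12 and 22.08 at 24 hours (2.20), so its values were highest at 6 hours and its 24-hour values were below those at 1 hour.

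Few sites had lower values at 24 hours. The 4 with the largest difference in that direction were near Cd244a, a receptor gene of lymphoid and myeloid cells (18.73 and 29.55 basal tags against 12.12 and 9.6), Isca1 (19.2 and 26.86 against 12.12 and 8.64), Thsd7b (24.82 and 34.92 against 22.44 and 6.72) and Erich3 (25.76 and 57.75 against 21.54 and 20.16). Their limma adjusted p was 0.838. Their log2 ratios were -0.97 to -1.08, and -1.53 to -1.68 with median-ratio scaling.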
